A study of Mus musculus with 18 samples.

Results

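The response to anti-IgD that was left when mice had first received PF-303 was followed on 10 of the 18 arrays of the series, 5 labelled as anti-IgD with PF-303 and 5 as PBS with PF-303. The members were chosen by these labels alone, and the comparison was made across all 11104 named genes that passed a filter on signal, of 18193 named genes on the array. All mice were C57BL/6J, and the cells were CD23-positive B lymphocytes of the spleen. In both groups PF-303, an inhibitor of the kinase BTK, was injected 2 h before the second injection, and the cells were taken 2 h after it. The second injection was PBS in the control group and an antibody against IgD in the other. The groups of 4 arrays each from mice given vehicle and then PBS or anti-IgD served here only to show where the response under PF-303 differed from that without the inhibitor. The dose of PF-303, the age and sex of the mice and the extent to which BTK was inhibited are not given in the sources used here. The labels number the samples of a group and do not say whether 1 sample is 1 mouse. The p-values therefore rest on the variation among samples, part of which may be technical.

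IgD is, beside IgM, the antigen receptor of mature follicular B cells, and an antibody against it crosslinks the receptor on most of them at once. The kinases LYN and SYK are activated first, and SYK then acts through the adaptor BLNK to bring BTK to phospholipase C gamma 2. That enzyme releases the messengers that raise calcium and activate protein kinase C and RasGRP, from which the NFAT, NF-kB and ERK pathways start. Phosphoinositide 3-kinase is recruited in parallel through the adaptor BCAP, and AKT downstream of it keeps the FOXO transcription factors out of the nucleus. Within hours the cell transcribes immediate early factors such as the EGR and NR4A families and MYC, builds ribosomes, and shuts off genes of the resting state. In B cells that lack BTK function, the calcium and NF-kB branches are the ones known to be weakened most.

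RNA was measured as the MAS5 signal, a brightness per probe set on a linear scale, on Affymetrix Mouse Genome 430 2.0 arrays. The deposited arrays had nearly the same trimmed mean, 99.96 or 99.97, so each value is relative to the other genes on the same array. In RNA of a bulk sample, fewer cells of a type and less RNA per cell cannot be told apart. The label of the cells was borne out by Fcer2a, which encodes CD23 and had signals from 2192 to 2615 in the PBS arrays and from 1999 to 2359 in the anti-IgD arrays. Of the 10 follicular B-cell markers tested, of 12 listed, 2 were lower and none was higher with anti-IgD. Over all genes tested 19.1% were lower and 14.7% higher. Spike-in controls were more than 2 times their median over all arrays on PBS arrays 3 and 4 and anti-IgD arrays 1 and 3 of the PF-303 groups, and on PBS arrays 3 and 4 of the vehicle groups, 6 arrays in all. On anti-IgD array 1 the ratio of the 3' to the 5' Gapdh probe set was 1.11, against 0.71 to 0.78 on the other 9 arrays of PF-303-treated mice, and on PBS array 4 of the vehicle group, which had the highest spike-in signal, it was 1.22. The results were recomputed without the 6 arrays of high spike-in controls.

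Anti-IgD changed 3755 genes in B cells of mice that had received PF-303. The largest rises were those of the immediate early factors Egr1, Egr2, Egr3 and Nr4a1, and most tested genes of ribosome building (57 of 59) and of MYC-linked metabolism (27 of 36) rose. Among tested genes of the resting state 19 of 33 fell and 7 rose, and among interferon-stimulated genes 14 of 27 fell and none rose. On log2(signal + 16), 1635 genes were higher (14.7% of the genes tested) and 2120 were lower (19.1%) at a limma adjusted p under 0.05. Of these, 202 rose and 81 fell at least 2-fold. The 5 arrays of one group lay wholly above the 5 of the other for 2751 genes (24.8% of those tested), 1246 of them higher and 1505 lower with anti-IgD. The median log2 fold change over all genes was -0.05. When every array was shifted to the same median, the split moved from 43.5% to 51.3% higher among the genes called, with 1868 higher and 1770 lower.

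With vehicle, anti-IgD raised 1928 genes (17.4%) and lowered 3394 (30.6%), 393 and 402 of them at least 2-fold. The fold changes of the vehicle and the PF-303 comparison share no arrays. The calls of both come from the same fit, with a variance per gene taken over all groups. A gene of low variance is therefore more easily called in both, so the lists of calls are not independent. How much this adds to the overlaps that follow was not tested. Of the genes higher under PF-303, 1252 were also higher with vehicle, which is 76.6% of the PF-303 list and 64.9% of the vehicle list. Of the genes lower under PF-303, 1835 were also lower with vehicle, which is 86.6% of the PF-303 list and 54.1% of the vehicle list. Across the 11104 genes the fold changes of the 2 comparisons had a Pearson r of 0.81 and a Spearman rank correlation of 0.74, given as a description, since genes are not independent replicates. The test of the difference between the responses called 1086 genes (9.78%). The difference, PF-303 minus vehicle, was above 0 in 740 of them and below 0 in 346. The median log2 fold change over all genes was -0.13 with vehicle and -0.05 under PF-303, a gap that can push such differences above 0. With every array shifted to the same median 1034 genes were called. Their split by direction, and that of the vehicle calls, was not recomputed in that setting. With the row letter of the position code in the labels as a block, 291 genes were called. That block ended the call of a difference for 20 of the 45 genes named by rule that had one, among them Arhgef1, AY036118, Btk, Dnajc21, Dusp10, Fam167a, Hs1bp3, Myc, Nolc1, Ppp3cc, Prkcd, Rasa3, Syk and Tgfb3.

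**Figure D1:**
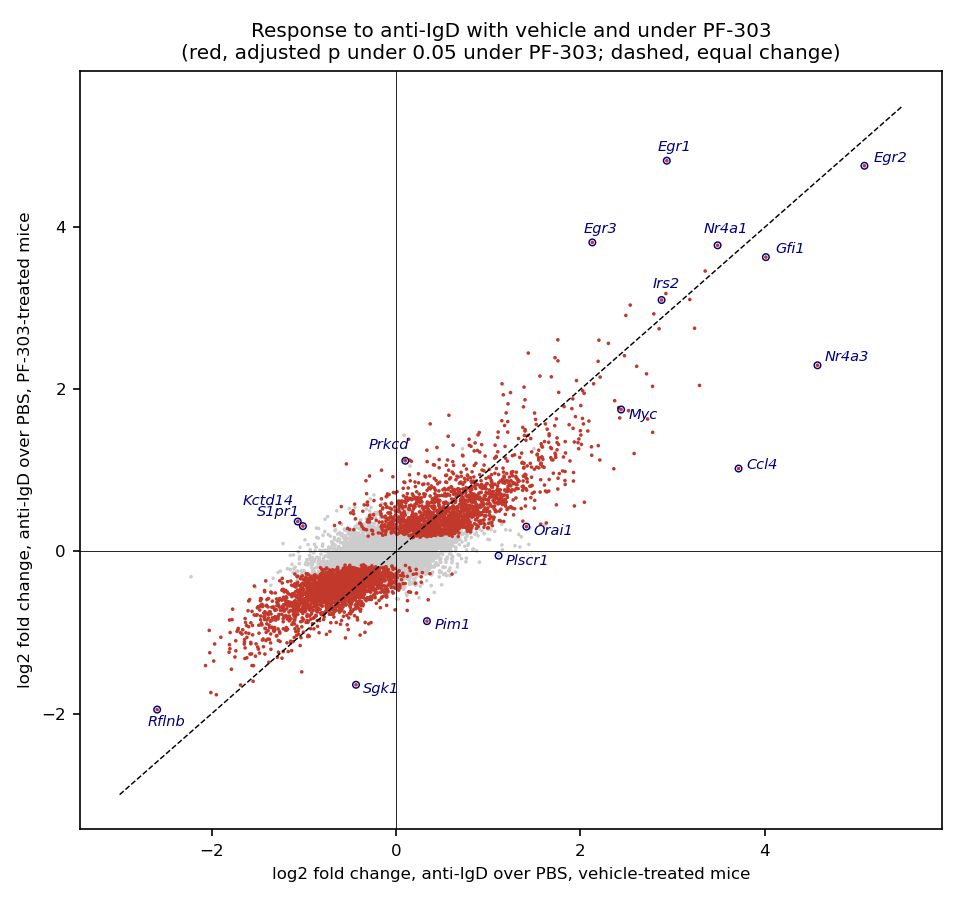
Each point is 1 of the 11104 genes, with its log2 fold change (anti-IgD over PBS) in vehicle-treated mice on the x axis and in PF-303-treated mice on the y axis; red points were called under PF-303 and the dashed line marks equal change. Most red points lie on the same side of 0 on both axes (Pearson r 0.81), Egr1 and Egr3 lie above the line, Nr4a3, Ccl4 and Orai1 lie below it, and S1pr1, Kctd14 and Pim1 lie on opposite sides of 0.

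The immediate early transcription factors, the genes that a receptor signal switches on without new protein, had a median log2 fold change under PF-303 of 0.79 over 28 tested members of 31. Of these, 18 were higher and 2 were lower. The median of the same genes with vehicle was 0.60. Egr1, a zinc finger factor induced through ERK, gave signals of 116, 115, 87.9, 88.5 and 132 on the PBS arrays and of 4271, 2676, 4140.3, 2990.4 and 3453 on the anti-IgD arrays (replicates 1 to 5 in both). The groups lay far apart, and the log2 fold change was 4.82 ± 0.15 (standard error of the fit, as in all fold changes below; n = 5 per group; limma adjusted p = 2.37e-16). Egr2, a related factor that also restrains activated lymphocytes, went from 10.8, 14.9, 9.48, 8.57 and 14.9 to 691, 676, 751, 705 and 843. All PBS values of Egr2 were below the filter level of 15.2, so its log2 fold change of 4.76 ± 0.13 depends on the number added before the logarithm and ran from 3.39 to 5.88 with 64 or 1 in place of 16. Egr3, the third factor of this family, had PBS signals of 217, 231, 193, 211 and 249.9. Its anti-IgD signals were 3956, 3419, 3855, 2257 and 3330.3, a log2 fold change of 3.81 ± 0.14 (limma adjusted p = 2.47e-15) with no overlap of the groups. Where the probe sets of a gene were averaged, that of Egr3 was 2.36.

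For Egr1 and Egr3 the fold change was larger under PF-303 than with vehicle, and the control level differed too. The log2 fold change with vehicle was 2.94 for Egr1 and 2.13 for Egr3, and the responses differed by 1.88 ± 0.22 (limma adjusted p = 2.25e-05) and 1.68 ± 0.20 (2.35e-05). The mean signal of Egr1 with PBS was 107.7 ± 19.0 (SD, n = 5) under PF-303 and 611 ± 153 (n = 4) with vehicle. After anti-IgD it was 3506 ± 697 (n = 5) and 4668 ± 207 (n = 4). Egr3 followed the same order, with means of 220.7 and 964 for PBS and 3363 and 4295 for anti-IgD. With probe sets averaged, the difference of the Egr3 responses was 0.73 (adjusted p = 0.04). So the level reached was lower under PF-303 for both, while the fold was larger over a lower control. The PBS arrays under PF-303 enter both the fold change and the comparison of control levels. For Egr2 the responses were 4.76 and 5.08 and the difference of -0.32 did not pass the test (limma adjusted p = 0.32, with a 95% interval from -0.72 to 0.07).

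Nr4a1, the orphan nuclear receptor NUR77 that is widely used as a readout of antigen receptor signals, had PBS signals of 54.1, 67.9, 58.8, 46.5 and 52.3. With anti-IgD they were 1201, 1109.6, 1022, 634 and 971, a log2 fold change of 3.78 ± 0.13 (limma adjusted p = 2.47e-15), against 3.49 with vehicle. The lowest anti-IgD array was still above every PBS array by a wide margin. Nr4a3, a relative of Nr4a1, behaved otherwise. Its PBS signals were 5.7, 1.11, 20.6, 12.9 and 9.47 and its anti-IgD signals 137, 102, 133, 70.5 and 108, a log2 fold change of 2.30 ± 0.17 under PF-303. With vehicle the mean rose from 26.6 to 1002, a log2 fold change of 4.57, and the responses differed by -2.28 ± 0.26 (limma adjusted p = 1.57e-05). With 1 added in place of 16 this difference was not called (adjusted p = 0.104).

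Fos, a partner in the AP-1 factor, was called higher by 0.96 ± 0.36 (limma adjusted p = 0.0418), but it was not called in 13 of the 31 other settings. Its signals were 35.6, 65.1, 43.7, 11.9 and 41 with PBS and 36.9, 73.4, 71, 327 and 62.5 with anti-IgD, so the groups overlapped. Anti-IgD array 4 was the highest by far. Without it the log2 fold change of Fos was 0.52 (adjusted p = 0.134), and without PBS array 4, the lowest, it was 0.73 (0.132). The 2 members of the list that fell were Jund, an AP-1 factor abundant in resting cells (-0.66 ± 0.11), and Btg2, an antiproliferative gene (-0.72 ± 0.09). The groups did not overlap for either gene.

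**Figure D2:**
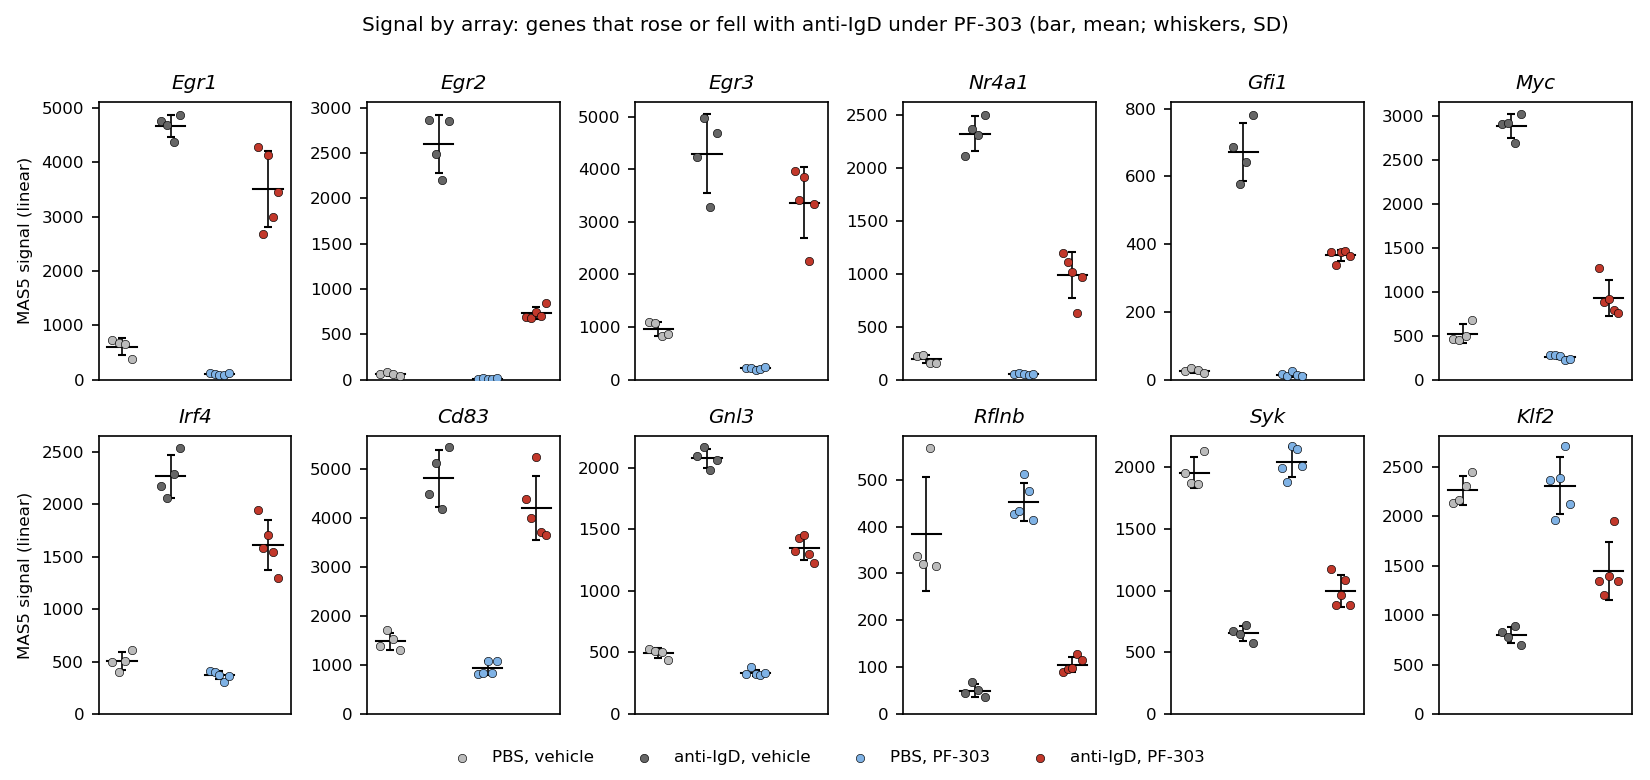
MAS5 signal on a linear axis for 12 genes in the 4 groups (n = 4 per vehicle group, n = 5 per PF-303 group); each point is 1 array, the bar is the mean and the whiskers are the SD. For each gene shown, the anti-IgD arrays under PF-303 (red) do not overlap the PBS arrays under PF-303 (blue), from Egr1 (87.9 to 132 against 2676 to 4271) to Klf2 (1960.3 to 2711 against 1200.4 to 1955).

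Other leading rises were of genes outside the immediate early list. Gfi1, a transcriptional repressor, went from 16.1, 10.6, 25.3, 14.4 and 10.4 to 377, 339.6, 376, 379 and 366, and the 5 anti-IgD arrays were close to each other. Its log2 fold change was 3.63 ± 0.12 (limma adjusted p = 4.68e-16), from 2.45 to 4.56 with 64 or 1 added. Plk2, a polo-like kinase, rose by 3.46 ± 0.14, Marcksl1, an actin-binding substrate of protein kinase C, by 3.18 ± 0.22, and Hivep3, a zinc finger factor that binds kB-like sites, by 3.11 ± 0.13. Irs2, the adaptor of the insulin and interleukin-4 receptors, went from 65.3, 67.3, 93.8, 63 and 64.7 to 710.1, 752, 857, 675 and 643, a log2 fold change of 3.10 ± 0.12 against 2.88 with vehicle. Fam167a (3.04 ± 0.09), Mreg (2.93 ± 0.20), Bhlhe40, a basic helix-loop-helix repressor (2.91 ± 0.09), and Slc7a5, the light chain of a leucine transporter (2.75 ± 0.25), followed. Ahr, the aryl hydrocarbon receptor (2.75 ± 0.09), and Tgfb3, a transforming growth factor (2.61 ± 0.14), complete the 15 largest. With probe sets averaged, Hivep3 rose by 1.14 and Ahr by 1.68. With 64 or 1 added, the rise of Plk2 ran from 2.37 to 4.26, that of Slc7a5 from 1.89 to 3.50 and that of Tgfb3 from 1.43 to 3.94. The groups of PF-303 arrays did not overlap for any of the 15, which the rule that named them required. Of these 15, the responses differed from those with vehicle in Egr1 and Egr3 and, by the smaller amounts of 0.50 and 0.86, in Fam167a and Tgfb3, all larger under PF-303. Both of these calls were lost when the 6 arrays of high spike-in controls were left out (adjusted p = 0.119 and 0.0784). That for Fam167a was also lost without vehicle PBS array 4 (0.0516) and without vehicle anti-IgD array 2 (0.0627). It was lost as well with arrays shifted to the same median (0.0903) and with 64 added (0.0726).

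Promoter sequence was searched because the immediate early genes are classical targets of factors that bind the cyclic AMP response element and the serum response element. It is shown for 6 leading or followed genes whose upstream 250 bases held a site searched. These 6 are the genes with the most matches, and entries on a single chromosome were left out before the choice. A gene that is not shown, such as Egr1, may therefore also hold a site. Sequences are from RefSeq (GRCm38.p6), where 29 of 44 genes named among the largest changes or followed by name had an entry, and are given 5′ to 3′ on the strand of the gene. Capitals mark TGACG (the core of the cyclic AMP response element, CGTCA on the other strand), the whole element TGACGTCA that contains it, the EGR sites GCGTGGGCG and GCGGGGGCG on either strand, and the CArG box of serum response factor. Nr4a1 is shown for chr15:101266601-101266822, Nr4a3 for chr4:48045062-48045174, Fos for chr12:85473749-85473840, Plk2 for chr13:110394970-110395001, Egr2 for chr10:67537787-67537816 and Fchsd2, the only falling gene of the 6, for chr7:101108542-101108626, all on the plus strand. Each ends upstream of the annotated start. Egr2 has 5 annotated starts, and only the CArG box and its flanks are given.
Nr4a1: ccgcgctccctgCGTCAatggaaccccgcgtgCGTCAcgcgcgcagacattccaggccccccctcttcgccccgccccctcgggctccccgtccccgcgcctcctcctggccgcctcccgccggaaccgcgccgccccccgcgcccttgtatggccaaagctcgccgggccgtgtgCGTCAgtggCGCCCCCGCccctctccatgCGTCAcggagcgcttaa
Nr4a3: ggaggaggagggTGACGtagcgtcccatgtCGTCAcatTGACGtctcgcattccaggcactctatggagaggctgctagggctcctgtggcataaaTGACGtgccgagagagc
Fos: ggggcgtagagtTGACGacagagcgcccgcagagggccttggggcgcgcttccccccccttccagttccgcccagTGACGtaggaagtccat
Plk2: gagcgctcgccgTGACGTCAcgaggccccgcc
Egr2: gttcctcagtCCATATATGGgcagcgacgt
Fchsd2: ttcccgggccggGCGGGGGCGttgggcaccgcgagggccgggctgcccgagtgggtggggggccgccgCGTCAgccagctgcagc
The promoter of Nr4a1 held the core 4 times and an EGR site once, and that of Nr4a3 held the core 4 times. Both were shown because of their number of matches, so these counts are no separate result. The core was in 38.1% of the 160 promoters of genes that rose at least 2-fold, in 18.2% of the 66 of genes that fell at least 2-fold and in 27.7% of the 9017 tested genes with an entry. The whole element was in 4.38%, 0% and 2.76% of the same sets, an EGR site in 8.75%, 7.58% and 5.58%, and a CArG box in 0.625%, 0% and 1.06%. These shares, and those of the E-box below, count only the first entry listed for each gene. The sequences above are from the entry with the most matches. The CArG box shown for Egr2 lies at another start than its first entry, so it is not counted in that share. A match of letters is a description of the sequence and not a bound site.

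The E-box CACGTG, the site bound by MYC and by clock factors such as BHLHE40, was the motif whose share differed most between the genes that rose and all tested genes. It was in 21.9% of the promoters of the genes that rose at least 2-fold (35 of 160), in 9.09% of those that fell (6 of 66) and in 8.61% of all tested genes with an entry. No test was made of these shares, and promoters differ in base composition. Ribosome biogenesis genes held it in 4 of 52 promoters (7.69%) and genes of MYC-linked growth metabolism in 6 of 32 (18.8%). The 30 bases around it are shown for the 4 genes with the largest rise that held one, a set chosen after the shares were seen. They are Egr2 (chr10:67535460-67535489, plus strand, another start than above), Irs2 (chr8:11008956-11008985), Ciart, a repressor of the circadian clock (chr3:95882327-95882356), and Dpp7, a lysosomal dipeptidyl peptidase (chr2:25356388-25356417), the last 3 on the minus strand.
Egr2: aatcctcccgccCACGTGcaccgacggcag
Irs2: gtaacgcagagtCACGTGttgttttgctct
Ciart: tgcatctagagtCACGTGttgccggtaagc
Dpp7: ccgccagactatCACGTGatgctgccccgc
Ciart rose by 2.42 and Dpp7 by 2.39 on the log2 scale. Per1, a clock gene, also held an E-box and rose by 1.88 ± 0.13, against 1.92 with vehicle.

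Feedback genes of ERK signalling, which dampen the pathway that induces them, were in part higher. Of 16 tested, of 17 listed, 6 rose and 2 fell, and the median was 0.30 on the log2 scale (0.36 with vehicle). The dual-specificity phosphatases Dusp2 (1.27 ± 0.08), Dusp4 (0.85 ± 0.16) and Dusp10 (0.70 ± 0.10) rose most. Dusp10 was not called with vehicle (-0.08), and the responses differed by 0.78 (limma adjusted p = 0.00177). Rasa3, a GTPase-activating protein that switches off RAS and RAP, fell from 1707, 1512, 1714, 1749 and 1609 to 644, 589, 733, 862 and 653. That is a log2 change of -1.24 ± 0.09, against -1.81 with vehicle. The difference between the responses of Rasa3, 0.57, was not called without the arrays of high spike-in controls (adjusted p = 0.0572).

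NF-kB subunits and targets were divided. Of 25 tested, of 27 listed, 10 rose and 7 fell under PF-303, and the median log2 fold change was 0.08, against 0.58 with vehicle. The responses differed below 0 in 9 members and above 0 in 1. Cd83, a surface protein of activated B cells, rose from 816, 833, 1086, 833 and 1086 to 4383, 4001, 5246, 3722 and 3655. Its log2 fold change was 2.16 ± 0.12 (limma adjusted p = 3.45e-12), against 1.69 with vehicle, and the groups lay clearly apart. Irf4, the factor that steers activated B cells towards plasma cells, rose from 407, 399, 373, 308 and 366 to 1948, 1580.1, 1706, 1543 and 1294, by 2.07 ± 0.11 against 2.14 with vehicle. Nfkbia, the inhibitor of NF-kB that NF-kB itself induces, had log2 fold changes of -0.20 ± 0.10 (limma adjusted p = 0.13) and 0.06 with vehicle, neither called. It was called lower with quantile normalization, the spike-in covariate and the mean of probe sets. Falling members were Bcl3, an IkB-like coactivator (-1.24 ± 0.12), Cd40, the receptor for T-cell help (-0.73 ± 0.11), and Birc3, an inhibitor of apoptosis (-0.60 ± 0.11), for none of which the responses differed from vehicle.

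The chemokines and Icam1 stood apart from Cd83 and Irf4. Ccl4, a chemokine that attracts T cells, had signals of 26.1, 13, 45.7, 30.3 and 21.3 with PBS and 69.7, 68.5, 90.4, 63.2 and 58 with anti-IgD. It rose by 1.02 ± 0.18 under PF-303 and by 3.72 with vehicle, where the mean reached 494, and the responses differed by -2.69 ± 0.26 (limma adjusted p = 3.86e-06). The rise of Ccl4 under PF-303 ran from 0.56 to 1.42 with 64 or 1 added. Ccl3, the neighbouring chemokine, had PBS signals from 0.423 to 7.03 and anti-IgD signals from 17.8 to 39.2 under PF-303. Its log2 fold change of 1.21 ± 0.17 ran from 0.44 to 3.52 with 64 or 1 added, and the difference from vehicle, -1.37, was not called with 1 added. Icam1, the adhesion ligand of LFA-1, fell from 310.3, 272, 308, 317 and 311 to 262, 229, 258, 261 and 229, by -0.28 ± 0.08, with no overlap. With vehicle it rose by 0.61, so the responses differed by -0.89 ± 0.11 (limma adjusted p = 5.34e-05). The fall of Icam1 was not called with the position row as a block (adjusted p = 0.0696).

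Calcium and NFAT genes were mostly lower or not called. Of 18 tested, of 21 listed, 2 rose and 7 fell, with a median of -0.17 (-0.35 with vehicle). Orai1, the pore of the calcium channel opened by receptor signals, had signals of 175, 171, 208, 164 and 157 with PBS and 208, 232, 253, 207 and 200.5 with anti-IgD, and the groups overlapped. Its log2 fold change was 0.31 ± 0.09 (limma adjusted p = 0.00983) against 1.41 with vehicle, and the responses differed by -1.11 ± 0.13 (2.35e-05). Nfatc1, an NFAT factor that induces its own expression, rose by 0.42 ± 0.10 (0.77 with vehicle), and by 0.69 with probe sets averaged. Orai2, a relative of Orai1 (-0.51 ± 0.10), Ppp3cc, a catalytic subunit of calcineurin (-0.47 ± 0.10), and Nfatc3 (-0.40 ± 0.09) fell.

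Among surface and secreted proteins of B-cell activation, 9 of 26 tested (28 listed) rose and 4 fell. Cd86, the costimulatory ligand of CD28, rose from 168, 188, 177, 165 and 182 to 549, 567, 621, 450.1 and 497, by 1.52 ± 0.09 against 1.92 with vehicle. The difference between the responses was not called (limma adjusted p = 0.056). Cd69, which holds activated lymphocytes in the tissue by blocking S1PR1, had signals of 444, 419, 372, 353 and 406 with PBS and 560.2, 554, 579, 373 and 566 with anti-IgD. Its log2 fold change of 0.37 ± 0.14 was barely called (limma adjusted p = 0.0443), array 4 lay within the PBS range, and the call was lost in 14 of the 31 other settings tried. With vehicle Cd69 rose by 1.38, and the responses differed by -1.001 ± 0.21 (0.00447). Cd44, a hyaluronan receptor, fell by 0.47 on the log2 scale.

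Genes of ribosome biogenesis, which make and assemble ribosomal RNA, rose almost throughout. Of 59 members tested, of 60 listed, 57 rose and none fell, and the median of the list was 0.74 on the log2 scale, where the median of all genes was -0.05. The 57 include every member but Polr1c and Imp3. With vehicle 55 rose, with a median of 1.11, and the responses differed below 0 in 19 members and above 0 in none. Gnl3, the nucleolar GTPase nucleostemin, went from 324, 379.8, 326, 318 and 334 to 1323, 1433, 1452, 1302 and 1224, by 1.95 ± 0.07 (limma adjusted p = 2.86e-15) against 2.04. Polr1b, the second largest subunit of RNA polymerase I, rose by 1.66 ± 0.12 (1.95 with vehicle). Nolc1, a nucleolar chaperone of small nucleolar particles, rose by 1.49 ± 0.08 (2.00 with vehicle), and its responses differed by -0.51 (0.00713). With the arrays of high spike-in controls left out 55 members were called higher, and with the position row as a block 53.

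Myc, the factor that drives these genes in growing cells, rose from 284, 278, 265, 228 and 240.2 to 1272, 885, 914, 791 and 759. The log2 fold change was 1.75 ± 0.12 (limma adjusted p = 1.45e-10). With vehicle it was 2.44, from a mean of 524 to one of 2883, and the responses differed by -0.69 ± 0.18 (0.0168). The mean reached under PF-303 was 924. The difference of the Myc responses was not called with the position row as a block (adjusted p = 0.126), and it was -1.06 without the arrays of high spike-in controls.

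In MYC-linked growth metabolism 27 of 36 tested members (42 listed) rose and 4 fell, with a median of 0.60 (0.74 with vehicle). The responses differed below 0 in 7 members and above 0 in none. Slc7a5 has been given above. Shmt1, which feeds serine carbon into folate metabolism, rose by 2.28 ± 0.11 and Srm, spermidine synthase, by 1.61 ± 0.09. The rise of Shmt1 ran from 1.60 to 2.68 with 64 or 1 added. Fasn, fatty acid synthase, went from 128, 156, 139.6, 117 and 149 to 406, 431, 399, 363 and 392, by 1.43 ± 0.08 under PF-303 and 1.43 with vehicle. Falling members included Hk1, a hexokinase (-0.49 ± 0.10), Eif4ebp1, an inhibitor of cap-dependent translation (-0.35 ± 0.08), and Slc2a1, the glucose transporter GLUT1 (-0.30 ± 0.08). With probe sets averaged Hk1 was at -0.32, and Eif4ebp1 (adjusted p = 0.396) and Slc2a1 (0.197) were not called. Slc2a1 was also not called with the position row as a block (0.0875) or without the arrays of high spike-in controls (0.114).

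Heat shock proteins and chaperones rose in 11 of 17 tested members (21 listed) and fell in none, with a median of 0.38 under PF-303 and 0.36 with vehicle. Hspd1, the mitochondrial chaperonin, rose by 0.82 ± 0.07, Hsph1, a nucleotide exchange factor of HSP70, by 0.73 ± 0.12 and Cct3, a subunit of the cytosolic chaperonin, by 0.62 ± 0.10. Genes of the unfolded protein and integrated stress response rose in 13 of 23 tested members (24 listed) and fell in none, with a median of 0.29. Ddit3, the stress-induced factor CHOP, led them, going from 132, 130.1, 143, 115 and 107 to 426, 395, 404, 378 and 382 (1.55 ± 0.08, against 1.72 with vehicle). Atf4, the central factor of the integrated stress response, and its target Psat1 in serine synthesis each rose by 0.65. With the position row as a block 8 members of this list were called higher.

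Genes for the proteins of the ribosome itself were different from those for its assembly. Of 38 tested of 66 listed, 2 rose, Rpl12 (0.87 ± 0.11) and Rps25 (0.32 ± 0.07), and none fell. The median of 0.13 became -0.005 with quantile normalization, so no direction is given for this list. Ribosomal protein genes have many near-identical processed copies in the genome, so their values are uncertain.

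**Figure D3:**
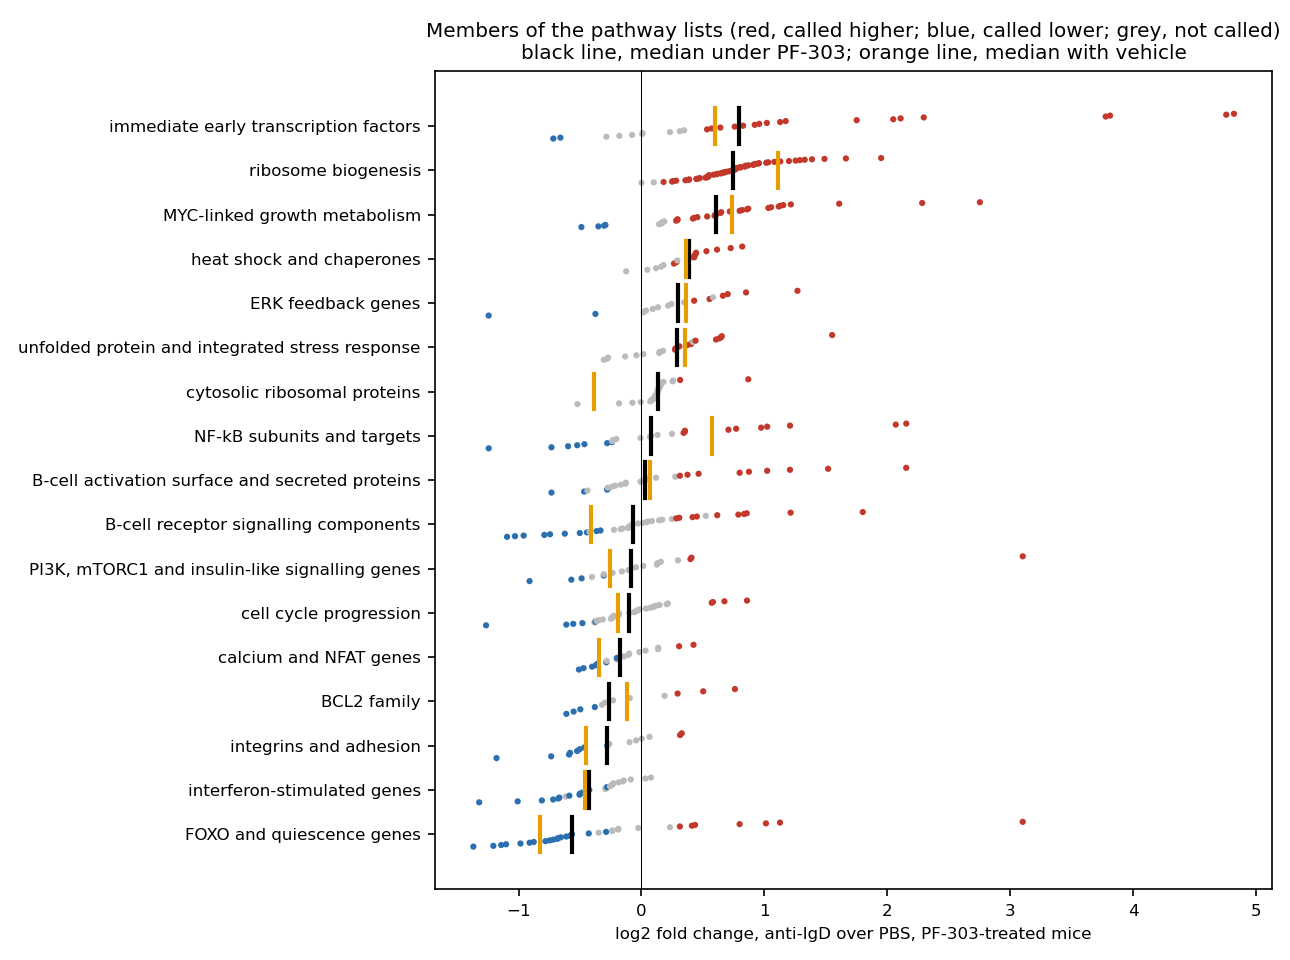
Log2 fold change (anti-IgD over PBS under PF-303) of every tested member of the 17 pathway lists, 1 point per gene, red where called higher, blue where called lower and grey where not called; the black line is the list's median under PF-303 and the orange line its median with vehicle. Ribosome biogenesis lies almost wholly to the right of 0 (57 of 59 called higher), interferon-stimulated and FOXO and quiescence genes lie mostly to the left (14 of 27 and 19 of 33 called lower), and the median of the NF-kB list is 0.08 under PF-303 and 0.58 with vehicle.

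The largest falls were smaller than the largest rises. Rflnb, a filamin-binding protein, went from 426, 434, 511, 476 and 415 to 89.5, 97, 98.8, 127 and 115, a log2 change of -1.95 ± 0.14 (limma adjusted p = 4.86e-10) against -2.59 with vehicle. Rabgap1l, a regulator of RAB GTPases (-1.77 ± 0.09), Neurl3, a ubiquitin ligase (-1.74 ± 0.13), Tent5a, a non-canonical poly(A) polymerase (-1.65 ± 0.11), Hepacam2 (-1.60 ± 0.16), Fchsd2, an endocytic adaptor (-1.49 ± 0.10), and Pde4b, which degrades cyclic AMP (-1.45 ± 0.15), followed. Dck, the deoxycytidine kinase of nucleotide salvage, fell from 1131, 1141, 1239.7, 1372 and 1273 to 487, 441, 434, 421 and 486, by -1.41 ± 0.08. The other falls among the 15 largest were those of B3gnt8, Ifit1bl1, Cd55, Kbtbd11, Gbp3 and Pgap1, from -1.41 to -1.32, and that of Sgk1. With probe sets averaged, Rabgap1l was at -1.01, Kbtbd11 at -0.64 and Pgap1 at -0.80. Sgk1, a kinase related to AKT, went from 303, 321, 306, 325 and 248 to 84.3, 106, 57.7, 85.4 and 98.7, by -1.64 ± 0.14. With vehicle it fell by 0.43 on the log2 scale, from a mean of 271 to one of 194, and the responses differed by -1.21 ± 0.21 (limma adjusted p = 0.00106).

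FOXO targets and quiescence genes, which AKT signalling and cell growth turn down, fell in 19 of 33 tested members (37 listed) and rose in 7, with a median of -0.56 (-0.83 with vehicle). The responses differed above 0 in 16 members and below 0 in 1. Cd55, a complement inhibitor on the cell surface, went from 1724, 1445, 1494, 1487 and 1578 to 481, 635, 554, 633 and 655, by -1.37 ± 0.09 against -1.38 with vehicle. Ypel3 (-1.20 ± 0.07) and S1pr4, a sphingosine 1-phosphate receptor (-1.14 ± 0.09), were next. Klf2, the factor that keeps naive lymphocytes quiet and recirculating, went from 2368, 1960.3, 2380.3, 2711 and 2118 to 1341, 1200.4, 1394, 1955 and 1346, with a gap of 1955 to 1960.3 between the groups. Its log2 change was -0.68 ± 0.11 (limma adjusted p = 4.65e-05) against -1.48 with vehicle, a difference of 0.80 ± 0.17 (0.00373). The members that rose most were Irs2, Pik3ip1, an inhibitor of phosphoinositide 3-kinase (1.13 ± 0.12), and Trib2, a pseudokinase (1.01 ± 0.09 under PF-303 and 1.01 with vehicle).

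Genes of phosphoinositide 3-kinase, mTORC1 and insulin-like signalling had 3 rises and 4 falls among 19 tested (24 listed), shares near those over all genes (14.7% and 19.1%). Beside Irs2, Rheb, the GTPase that activates mTORC1, rose by 0.40 ± 0.09. Akt1 was called higher by 0.41 ± 0.15, but its groups overlapped and the call was lost in 11 settings. The sestrins Sesn1 (-0.91 ± 0.08) and Sesn3 (-0.57 ± 0.08), which restrain mTORC1, fell, as they did with vehicle (-1.49 and -0.92).

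Components of B-cell receptor signalling rose in 10 and fell in 10 of 40 tested members (45 listed), while with vehicle 5 rose and 24 fell. The median was -0.07 under PF-303 and -0.41 with vehicle, and the responses differed above 0 in 13 members and below 0 in none. Fyn, a SRC-family kinase, went from 189, 191, 166, 125 and 160.1 to 682, 651, 661, 561 and 528, by 1.80 ± 0.12. Pik3ap1, the adaptor BCAP, rose by 1.21 ± 0.14 and Blk, another SRC-family kinase, by 0.86 ± 0.16. Syk went from 1995, 1876, 2174, 2149 and 2007 to 1172, 879.5, 961, 1085 and 885, by -1.03 ± 0.09 (limma adjusted p = 3.32e-09), against -1.56 with vehicle. Rasgrp1, an activator of RAS (-1.09 ± 0.08), and Cblb, a ubiquitin ligase that limits receptor signals (-0.96 ± 0.08), fell too. With probe sets averaged Rasgrp1 was at -0.61. Btk, the target of PF-303, had signals of 1125, 1058, 1100.2, 1126 and 1020.1 with PBS and 1075, 915, 965, 1139.7 and 983 with anti-IgD. It was not called (-0.10 ± 0.07, limma adjusted p = 0.289), it fell by 0.53 on the log2 scale with vehicle, and the responses differed by 0.43 ± 0.10 (0.00905). With every array shifted to the same median the difference was 0.31 and was not called (limma adjusted p = 0.0611). An inhibitor acts on the protein, so the RNA level of Btk is no check of the treatment.

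Integrins and adhesion genes fell in 8 of 15 tested members (16 listed) and rose in 2. Itga4, the alpha chain of VLA-4, fell by 1.18 on the log2 scale, Selplg, the selectin ligand PSGL-1, by 0.73 and Cd47, the signal that restrains phagocytosis, by 0.59. Itgb2, the beta chain of LFA-1 (0.33 ± 0.08), and Itgb1 (0.31 ± 0.09) rose. In the BCL2 family 3 of 12 tested members (16 listed) rose and 4 fell. The death-promoting Pmaip1, which encodes NOXA, rose by 0.76 ± 0.16. The death-promoting Bad (-0.61 ± 0.16) and Bmf (-0.55 ± 0.13) and the protective Bcl2 (-0.50 ± 0.13) fell. With the arrays of high spike-in controls left out, 1 member of this list was called higher. With probe sets averaged Bmf was at -0.36 and Bcl2 at -0.29.

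Interferon-stimulated genes fell in 14 of 27 tested members (30 listed) and rose in none, with a median of -0.42 under PF-303 and -0.46 with vehicle. Gbp3, a guanylate-binding protein, went from 554, 565, 531, 542 and 641 to 262, 205, 209, 206 and 208, by -1.32 ± 0.08 (limma adjusted p = 3.72e-11). Its relative Gbp2 fell by 1.01 on the log2 scale and Stat2, a factor that carries the interferon signal, by 0.81. None of the 3 differed from the response with vehicle by the test.

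Of the cell cycle list 4 of 35 tested members (36 listed) rose and 5 fell, shares below those over all genes (14.7% and 19.1%). Cdk4, the kinase of the early G1 phase, rose by 0.86 ± 0.09, Pcna, the sliding clamp of DNA replication, by 0.68 ± 0.08 and E2f3 by 0.58 ± 0.10 (0.31 with probe sets averaged). E2f2 fell by 1.26 on the log2 scale and Cdkn1b, the cell cycle inhibitor p27, by 0.61. Cdkn1b went from 1159, 1031, 938, 1082 and 1005 to 665, 685, 687, 730.2 and 616. With vehicle its mean went from 989 to 317, and the responses differed by 0.99 ± 0.12 (limma adjusted p = 4.23e-05), or by 0.64 with probe sets averaged. Ccnd2, the cyclin induced by receptor signals in B cells, was not called in either comparison (0.04 ± 0.11 under PF-303 and 0.23 with vehicle).

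How much of the vehicle response was left was described per gene as the log2 fold change under PF-303 divided by that with vehicle. Over the 795 genes called and at least 2-fold with vehicle, the median share was 0.623. The vehicle fold change that chose these genes comes from arrays that the PF-303 fold change does not use, but the same value divides. The call that also chose them rests on a variance taken over all groups. Choice for large vehicle values can pull the share below 1 even where the responses are equal. It bears in the same way on the counts nearer to and farther from 0 below, and its size was not tested. Computed for each anti-IgD array under PF-303 against the mean of the PBS arrays, it was 0.624, 0.664, 0.662, 0.558 and 0.625 (SD 0.043), so that array 4 was lowest. The share was 0.67 over the 393 risers (interquartile range 0.541 to 0.811) and 0.573 over the 402 fallers (0.462 to 0.705). The median log2 fold change over all genes was -0.13 with vehicle and -0.05 under PF-303. Such a gap can raise the share of risers and lower that of fallers. With every array shifted to the same median the share over both was 0.616. Risers and fallers were not recomputed apart in that setting, so their contrast is not read further. Of the risers, 371 were called higher under PF-303, none was called lower and 22 were not called. Of the fallers, 367 were called lower, 2 were called higher and 33 were not called. The test of the difference called the response nearer to 0 under PF-303 in 161 risers and 215 fallers, and farther from 0 in 12 risers and 1 faller.

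**Figure D4:**
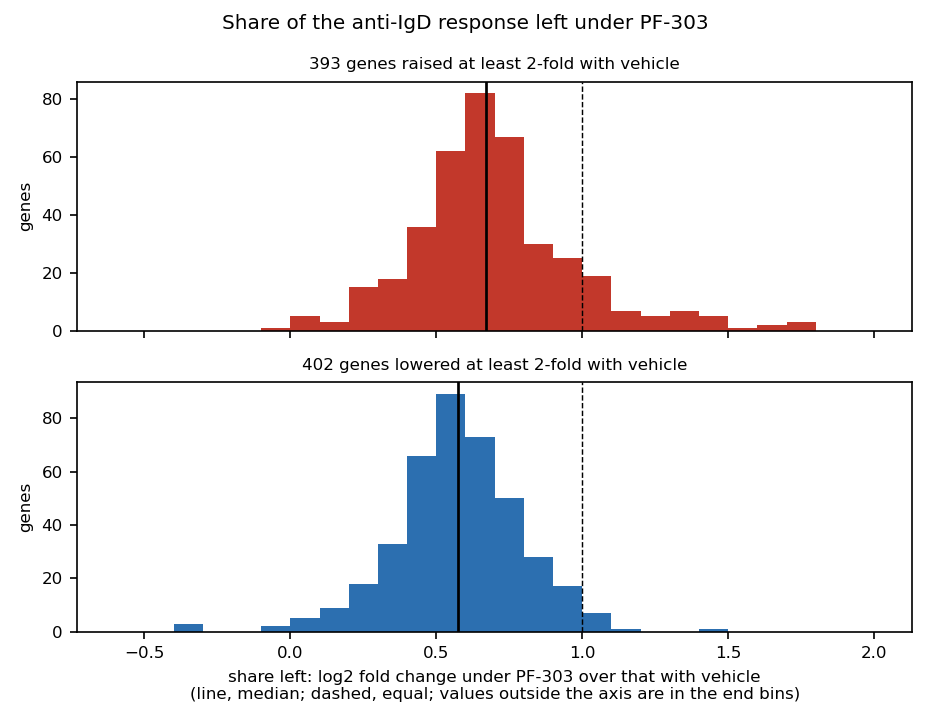
Number of genes by the share of the vehicle response left under PF-303, for the 393 genes raised (top) and the 402 genes lowered (bottom) at least 2-fold with vehicle; the solid line is the median and the dashed line marks an equal response. Both distributions have 1 peak between 0 and 1, with medians of 0.67 and 0.573, and 49 of the 393 raised genes lie above 1 against 9 of the 402 lowered ones. The contrast of raised and lowered genes was not recomputed with arrays shifted to the same median.

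Some genes had responses of nearly equal size. The 8 genes with a share nearest to 1 were Fasn, Trib2, Per1 and Cd55, given above, with P2ry10b, a lipid receptor of lymphocytes (-1.11 ± 0.19 and -1.12 with vehicle), Slc43a2, an amino acid transporter (-1.24 and -1.22), Rasgrf2, a RAS activator (-0.996 and -1.01), and Klhl14 (-1.31 and -1.29). For Fasn the difference between the responses was 0.00 with a 95% interval from -0.24 to 0.24.

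At the other end, 8 genes had the smallest shares among those whose responses differed by the test. Plscr1, a phospholipid scramblase, had signals from 38.8 to 51.1 with PBS and from 37.9 to 48.7 with anti-IgD under PF-303, a log2 fold change of -0.05 ± 0.11, and it rose by 1.11 with vehicle. Dnajc21, a ribosome-assembly cochaperone, was at 0.02 ± 0.15 against 1.15 with vehicle. Sipa1, an inactivator of RAP (-0.004 against -1.06), and Rassf2, a RAS-association protein (0.05 against -1.04), fell with vehicle and were not called under PF-303. With probe sets averaged, the difference between the responses went from -1.13 to -0.41 for Dnajc21 (limma adjusted p = 0.0499) and from 1.09 to 0.56 for Rassf2. That of Dnajc21 was -0.70 without the arrays of high spike-in controls. Arhgef1 was at 0.10 ± 0.24 against -1.23, but anti-IgD array 1, at 832 where the others lay from 347 to 431, turned the sign, and 1 other probe set of the gene was called in the opposite direction. With vehicle, PBS array 4 of Arhgef1 was at 1265 and the others from 381 to 521. The difference between its responses, 1.32, was 0.63 and not called without the arrays of high spike-in controls (adjusted p = 0.0837), and it was not called without vehicle anti-IgD array 5 (0.0576). AY036118 was at 0.39 ± 0.28 against -1.05. The same 2 arrays were its highest, at 1534 and 1391, and without anti-IgD array 1 it was at 0.17, without PBS array 2 at 0.23. The difference between the responses of AY036118 was not called in 9 of 30 other settings, among them those without vehicle PBS array 4 (0.0653) and without the arrays of high spike-in controls (0.135). The other 2, Kctd14 and S1pr1, were called in the opposite direction under PF-303.

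In all, 39 genes were called in both comparisons with opposite signs. S1pr1, the receptor by which lymphocytes leave the tissue, had signals of 599.9, 617, 582, 466 and 577 with PBS and of 799.8, 722, 729, 633 and 662 with anti-IgD, with no overlap. It was higher by 0.31 ± 0.10 under PF-303 (limma adjusted p = 0.0218), while with vehicle it fell from a mean of 575 to one of 277 (-1.01). The responses differed by 1.32 ± 0.15 (1.93e-05). The call of a rise under PF-303 was lost without anti-IgD array 1 (adjusted p = 0.06), without PBS array 4 (0.0754) and with the arrays of high spike-in controls left out (0.283). Kctd14 went from 597, 526, 602, 584 and 530.5 to 811, 652, 736, 791 and 707, by 0.37 ± 0.09 against -1.07 with vehicle. The difference of 1.44 ± 0.13 was called in every setting tried. E330020D12Rik rose by 0.93 ± 0.07 and fell by 0.29 on the log2 scale with vehicle. Hs1bp3 was higher by 0.55 ± 0.17 against -0.59, at signals under 50 and with overlapping groups. The rise of Hs1bp3 was not called with the position row as a block (adjusted p = 0.128) or without anti-IgD array 2 (0.0506).

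Pim1, a survival kinase, was the one of the 5 largest such differences that rose with vehicle and fell under PF-303. It went from 347, 348, 313, 350.0 and 307 to 193, 156, 177, 217 and 146, by -0.86 ± 0.09 (limma adjusted p = 5.61e-08). With vehicle it rose by 0.34, from a mean of 393 to one of 499, and the responses differed by -1.19 ± 0.13 (7.54e-06). This difference was called in every setting tried.

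A further 78 genes were called under PF-303 and in the difference, and not with vehicle. The 5 largest of these differences were all rises. Prkcd, protein kinase C delta, which promotes tolerance and apoptosis of B cells, went from 645, 567, 739, 637 and 599 to 1820.2, 1312, 1553, 1304 and 1105, by 1.12 ± 0.11 against 0.10 with vehicle. The responses differed by 1.02 ± 0.17 (limma adjusted p = 0.000865), though not with the position row as a block (0.0562). Pik3ip1 went from 181, 189, 268, 253 and 204 to 511, 535, 482, 495 and 444, and with vehicle its means were 222 and 241. Gnpda1, an enzyme of glucosamine metabolism (1.38 ± 0.14), Adi1, an enzyme of methionine salvage (1.003 ± 0.08), and Slc35c2, a Golgi transporter (0.87 ± 0.14), were the others. For all 5 the groups of PF-303 arrays did not overlap.

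**Figure D5:**
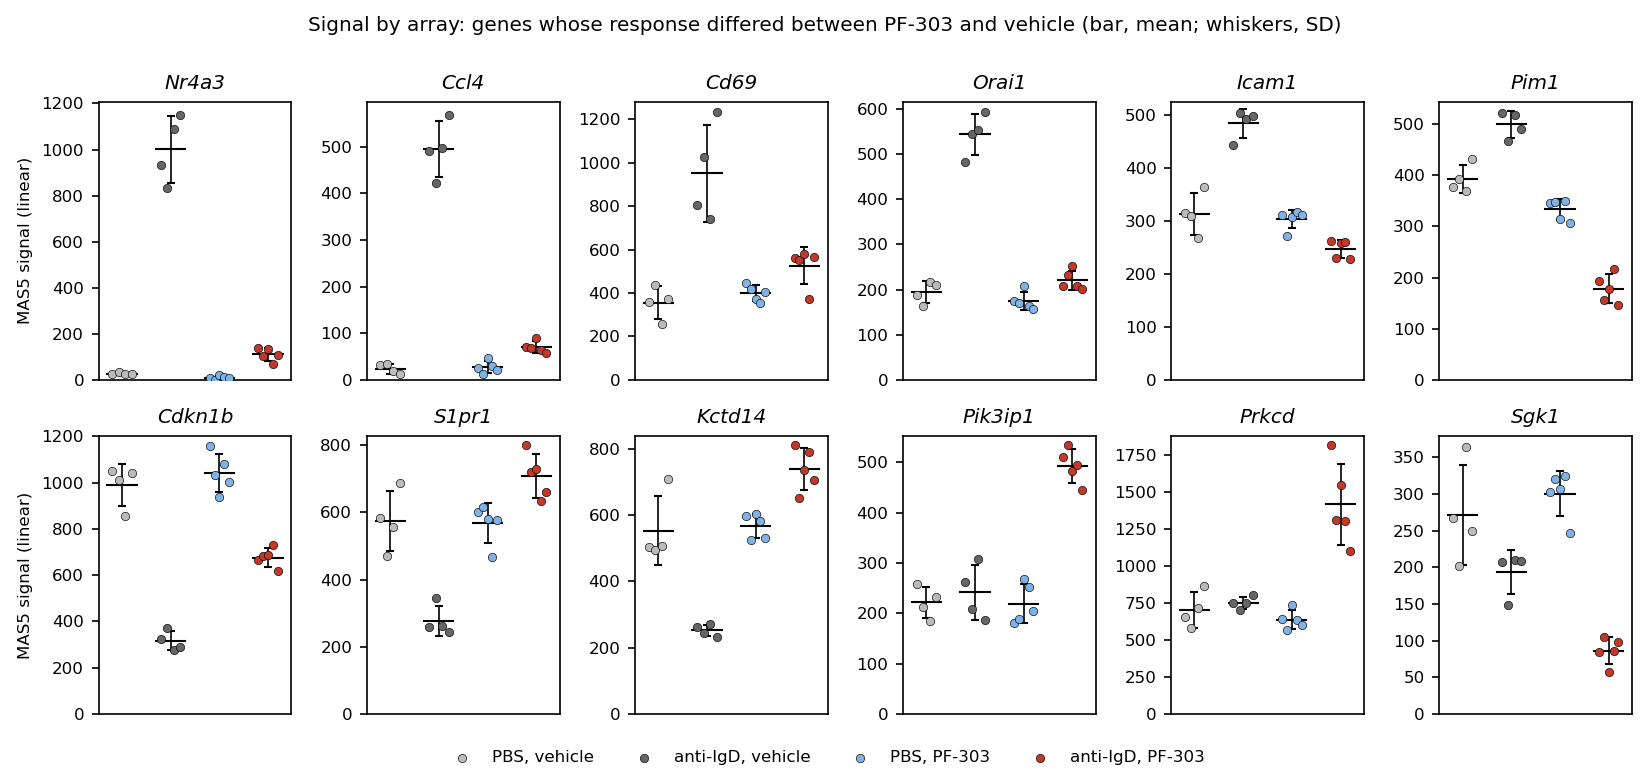
MAS5 signal on a linear axis for 12 genes whose response differed between PF-303 and vehicle, in the 4 groups (n = 4 per vehicle group, n = 5 per PF-303 group); each point is 1 array, the bar is the mean and the whiskers are the SD. Nr4a3, Ccl4 and Orai1 reach far higher signals with anti-IgD in vehicle-treated mice (means of 1002, 494 and 544), S1pr1 and Kctd14 are lower with anti-IgD after vehicle and higher with it after PF-303, and the anti-IgD arrays of Pik3ip1 and Prkcd are set apart from all others under PF-303.

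Markers of other cells were called in part, where 14.7% of all genes tested were higher and 19.1% lower. With so few members tested per list, a count of 1 cannot be told from these shares. Neutrophil markers were tested for 6 of 11 genes, with a summed signal of 98.4 to 315 over the PBS arrays and 176 to 895 over the anti-IgD arrays, and 1 was called, S100a8 (1.07 ± 0.40, limma adjusted p = 0.0409), with its highest signal, 468, on array 4. Macrophage and monocyte markers summed to 1493 to 2734 and 1868 to 3476, with 1 of 12 tested called, Cd14 (1.57 ± 0.49). Dendritic cell markers summed to 315 to 353 and 368 to 466, with 1 of 8 called, Ccr9 (2.16 ± 0.17). Of the 15 T-cell markers 8 were tested, with 1 higher (Cd5) and 1 lower (Cd2), while Cd3e, Cd4, Lck, Thy1 and Trac did not pass the filter. Of the stromal and endothelial markers 4 of 11 were tested, and Pecam1 was lower (-0.76 ± 0.15). Plasma cell markers summed to 3609 to 4640 and 4906 to 7382, with 3 of 6 tested (8 listed) higher and 1 lower. Irf4, described above as a gene of activated B cells that rose by 2.07, is 1 of these 3 and is part of the sum. Germinal centre markers had 1 of 7 higher and 1 lower, and natural killer cell markers 1 of 6 higher. Of the 12 markers of marginal zone and B1 cells, 4 were higher and 5 lower. No erythroid, platelet or mast cell marker that passed the filter was called. Array 4, where S100a8 was highest, is also the array on which Fos was highest and the share of the vehicle response lowest, and the part of other cells in these results was not tested.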

How the data were processed

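The deposited values were linear intensities, 1 per probe set, that the authors produced with MAS5, per the submitters' processing notes; its settings are not given in the sources used here. The table held 45101 probe sets. The platform annotation gave 34945 of them 1 gene symbol, 932 several and 9160 none, 64 were controls, and symbols were updated through gene identifiers with RefSeq. Only probe sets with 1 symbol were used. Signals were taken as log2(signal + 16). Probe sets above 15.2, the median of all values, on at least 4 arrays were kept, and each gene was represented by the one with the highest mean. Since a filter on 4 arrays can admit a gene through the stimulated group alone, the counts were repeated with no filter. All 18 arrays entered 1 fit with a mean per group (limma 3.58.1 in R 4.3.3, lmFit and eBayes with trend), with two-sided tests and Benjamini-Hochberg adjustment over the 11104 genes. Standard errors on the log2 scale had a median of 0.116 in the PF-303 comparison and 0.174 in the difference between the responses, and the number of arrays limits the precision. No arrays held identical values. The script was tested on simulated data.

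Genes were named by rule: the 15 largest rises and falls with groups apart, up to 3 rising and 3 falling members per pathway list, 18 genes by name, the 8 kept and 8 lost responses, and the 5 largest of the opposite and of the PF-303-only calls. The members and lists were chosen with earlier results of these data known. The 17 pathway and 13 marker lists share genes. Alternatives covered the offset (1, 64), filter, scaling, probe sets, blocks, the spike-in covariate, arrays left out and the eBayes trend. The counts of list members without doubtful arrays were added after seeing the data.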

Additional observations from a re-analysis of the deposited data

Results flagged for a closer look

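In 22 of the 262 pairs of a named gene and a PF-303 group, 1 array of 5 lay farther from the others than a Dixon test at the 95% level allows, where chance gives about 1 in 20. On PBS array 1 the signal that stood apart was that of Ccl3 (7.03). PBS array 2 stood apart for Gnl3 (379.8) and Icam1 (272). PBS array 3 stood apart for Dnajc21 (283) and Irs2 (93.8). PBS array 4 stood apart for Bad (75.2), Dusp2 (651), Rps25 (498), S1pr1 (466) and Srm (189.6). On PBS array 5 the signal that stood apart was that of Sgk1 (248). Anti-IgD array 1 stood apart for Arhgef1 (832), Dusp4 (156) and Gbp3 (262). On anti-IgD array 2 the signal that stood apart was that of S1pr4 (286). Anti-IgD array 3 stood apart for Ahr (744), Nfatc3 (551), Rasgrf2 (72.2) and Rps25 (620.4). Anti-IgD array 4 stood apart for Bmf (89.7), Cd69 (373) and Fos (327). PBS array 4 gave 5 of the 22 and anti-IgD array 3 gave 4.

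For 45 of the named genes the response differed between PF-303 and vehicle by the test of the difference itself (log2 fold change under PF-303 minus that with vehicle). It was above 0 for Egr1 (1.88), Egr3 (1.68), AY036118 (1.44), Kctd14 (1.44), Arhgef1 (1.32), S1pr1 (1.32), Gnpda1 (1.25), E330020D12Rik (1.22), Slc35c2 (1.20), Adi1 (1.16), Hs1bp3 (1.15), Rassf2 (1.09), Sipa1 (1.06) and Pik3ip1 (1.03). A smaller difference above 0 was found for Prkcd (1.02), Cdkn1b (0.99), Tgfb3 (0.86), S1pr4 (0.83), Klf2 (0.80), Dusp10 (0.78), B3gnt8 (0.66), Kbtbd11 (0.63), Sesn1 (0.58), Rasa3 (0.57), Ppp3cc (0.57), Syk (0.53), Fam167a (0.50) and Btk (0.43). It was below 0 for Ccl4 (-2.69), Nr4a3 (-2.28), Ccl3 (-1.37), Sgk1 (-1.21), Pim1 (-1.19), Plscr1 (-1.16), Dnajc21 (-1.13), Orai1 (-1.11) and Cd69 (-1.001). A smaller difference below 0 was found for Icam1 (-0.89), Myc (-0.69), Nolc1 (-0.51), Srm (-0.48), Fchsd2 (-0.46), Psat1 (-0.45), Rps25 (-0.42) and Dusp2 (-0.42). Psat1, B3gnt8 and Fchsd2 lost this call in many of the other settings, and Srm and Dusp2 in several. The difference of Ppp3cc was 0.04 without vehicle PBS array 4 (limma adjusted p = 0.882) and 0.08 without vehicle PBS array 1 (0.728). Without the arrays of high spike-in controls that of Ppp3cc was 0.07 (0.81). With arrays shifted to the same median it was 0.44 and not called (0.0657).

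Among 4111 probe sets that passed the filter without a single gene symbol, which no comparison above uses, 281 were higher and 515 lower with anti-IgD under PF-303.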

How the results depend on the processing

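The counts of 1635 higher and 2120 lower genes, the 1086 genes whose responses differed and the median share of 0.623 were recomputed in 31 other settings. Only the row letter of the position code, as a block, moved any of them beyond the limits set (1.5 times for a count, 1 SD between arrays for the share): 291 genes then differed between the responses, and the share was 0.58. Rows and groups overlap little. Row F holds 2 anti-IgD arrays and 1 PBS array under PF-303, and row G holds 1 of each. Within them 99.6% and 96.4% of the 3755 called genes had the same direction. The same arrays entered the calls, so this agreement was favoured in advance and is no test of the row. Leaving out 1 array at a time gave 1489 to 1717 genes higher, 1866 to 2224 lower, 788 to 1167 differing between the responses, and a share from 0.596 to 0.64. With no filter the counts were 1502 higher and 1887 lower of 18193 genes. Replicate numbers recur in the groups, but same-numbered PF-303 arrays correlated from -0.029 to 0.225, and 2 of 5 correlated best with their own number, so the number was not taken as a pairing. With the replicate block 1727 genes were higher, 2208 lower and 982 differed.

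Of the 131 named genes, 109 kept their direction and their side of the threshold in all settings, leaving aside values within a row of genes not called. A direction turned for 9, of which Akt1, Bcl2 and Orai1 were called and turned only within row G (-0.10, 0.13 and -0.0073). The other 6 were not called. They were Arhgef1 (-0.23 with the mean of probe sets, -0.13 without arrays of high spike-in signal, -0.10 to 0.20 leaving out 1 array), Ccnd2 (-0.076 with the mean of probe sets, -0.043 to 0.10), Rassf2 (-0.042 and -0.062 in the same 2 settings as Arhgef1, -0.058 to 0.094), Dnajc21 (-0.043 with the row block, -0.057 to 0.18), Sipa1 (0.037 with arrays shifted to one median, 0.11 with the row block, -0.062 to 0.049) and Plscr1 (0.016 with quantile normalization). Within rows F and G, AY036118 (-0.040 and -0.15), and within row G, Btk (0.050), neither called, also turned. The cause was not tested. Low signals limit the fold changes of Egr2, Gfi1, Plk2, Slc7a5, Shmt1, Nr4a3, Tgfb3, Ccl3, Ccl4 and Hs1bp3, whose size follows the number added before the logarithm.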
